A study of Mus musculus with 27 samples.

Results

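Scavenger receptors and the enzymes, transporters and coat proteins that handle sterols inside a cell were followed as a set of 8 genes: Msr1, Cd36, Scarb1, Ch25h, Abca1, Abcg1, Soat1 and Plin2. The members were the rows of the gene count matrix whose Ensembl identifier, with its version removed, carries 1 of these symbols in the GENCODE M21 annotation of the mouse genome. All 8 were found among the 55487 rows, and all 8 passed the filter on low counts (at least 10 counts in at least 4 libraries), which 20271 genes passed.

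The libraries were made from bulk brain tissue of male wild-type C57Bl/6J mice, 8 weeks old, that received infusions into the right lateral ventricle for 14 days at 0.25 μl per hour. Mice received PBS, human control IgG (pCtrl) or α-IgLON5#1, a pool of IgLON5-specific autoantibodies (AABs) purified from the plasma of a patient with anti-IgLON5 disease. IgLON5 is an adhesion protein of the neuronal surface. The cortex and the hippocampus contralateral to the infusion were sequenced, giving 27 libraries: hippocampi of 5 PBS, 4 pCtrl and 4 IgLON5 mice, and cortices of 5 PBS, 5 pCtrl and 4 IgLON5 mice. The sample labels call the control a non-reactive monoclonal antibody, whereas the study's methods describe IgG from healthy serum. The number in each title was read as the number of the mouse, and 13 of the 14 numbers occur in both tissues. No label says that animals were pooled. The antibody group rests on 1 preparation from 1 donor and on 4 mice, and human IgG in a mouse is foreign protein in both antibody groups.

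Total counts per library ranged from 19385642 to 58550621 (median 34061205). No library was a copy of another in its group: in each of the 48 pairs within a group, gene counts differed by at least 4.82 times the chi-square that counting error gives. The labels give the cell type as neurons, but markers of astrocytes, oligodendrocytes, microglia and endothelium were detected in every group beside those of neurons, so the values describe whole tissue. In such tissue, a change in the number of cells of a type and a change in RNA per cell cannot be told apart.

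Sterol handling in the brain is a division of labour. Msr1 (macrophage scavenger receptor, SR-A) and Cd36 bind modified lipoproteins and other polyanionic or lipid ligands on phagocytes, and Scarb1 (SR-B1) takes up cholesterol from high-density lipoprotein. Ch25h hydroxylates cholesterol to an oxysterol, is inducible by interferon, and its product activates liver X receptors (LXR) and restrains the maturation of SREBP2, the transcription factor of the cholesterol synthesis genes. Abca1 and Abcg1 export cholesterol to lipoproteins and are textbook LXR targets. Soat1 esterifies surplus cholesterol, and Plin2 coats the droplets in which the esters and triglycerides are stored.

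In GRCm38, the scavenger receptor genes lie at chr8:39581685-39642673 (Msr1, minus strand), chr5:17781690-17888801 (Cd36, minus strand) and chr5:125277087-125341094 (Scarb1, minus strand). Ch25h is a single-exon gene of 1387 bases at chr19:34473778-34475164 (minus strand). The exporters lie at chr4:53030787-53159895 (Abca1, minus strand) and chr17:31057675-31117988 (Abcg1, plus strand). Soat1 lies at chr1:156424525-156474331 and Plin2 at chr4:86648386-86670060, both on the minus strand. All are protein-coding. Abcg1 and Scarb1 overlap a short gene model on the same strand, and Ch25h and Soat1 overlap a gene model on the other strand. The strand setting of the authors' counting is not given in the sources used here, so a share of their reads could belong to these models.

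The promoters of Abca1 and Ch25h are shown because these were the members that rose in the hippocampus against both controls. Each sequence holds the 250 bases before the start site in RefSeq (GRCm38.p6), 5′ to 3′ on the strand of the gene. Capitals in the first, at chr4:53159896-53160145, mark a match on the other strand to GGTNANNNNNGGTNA, a loose form of the LXR element. Capitals in the second, at chr19:34475149-34475398, mark the cyclic AMP response element TGACGTCA.
Abca1: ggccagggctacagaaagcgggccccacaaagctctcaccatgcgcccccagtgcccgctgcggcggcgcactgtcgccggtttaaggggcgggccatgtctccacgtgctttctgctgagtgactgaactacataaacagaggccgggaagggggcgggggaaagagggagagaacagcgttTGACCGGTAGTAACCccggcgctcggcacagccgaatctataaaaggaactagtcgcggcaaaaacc
Ch25h: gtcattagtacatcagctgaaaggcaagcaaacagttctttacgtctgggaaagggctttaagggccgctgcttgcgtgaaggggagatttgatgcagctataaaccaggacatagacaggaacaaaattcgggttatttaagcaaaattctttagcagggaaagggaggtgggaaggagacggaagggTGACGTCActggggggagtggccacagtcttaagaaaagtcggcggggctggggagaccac
Both strands were searched in 32851 promoter windows of this length, which include those of 5 of the 8 members (Abca1, Cd36, Ch25h, Plin2 and Soat1). The LXR-type match begins 67 bases before the Abca1 start and occurs in 0.621% of all windows. The match in Ch25h begins 61 bases before its start, and this element occurs in 1.55% of windows. The E-box CACGTG was found in Abca1 (6.02% of windows), and TATAAA in both (12.4%). None of the 5 windows held a pair of GAAA blocks with any 2 bases between them, as in an interferon response element (2.98% of windows), or TCACNCCAC, those of a sterol response element (1.05%). The motifs were chosen after the 5 windows had been read, and a match or its lack describes these letters alone.

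In tissue without antibody, the members spanned a wide range of abundance. Levels were compared between genes as CPM (counts scaled to a common library size after TMM normalization) per kilobase of exon. In PBS hippocampus, Abcg1 was the most abundant at 10.6 ± 0.214 CPM per kb (SD, n = 5), and Abca1 followed at 6.34 ± 0.296. Soat1 stood at 4.34 ± 0.0834, Scarb1 at 2.96 ± 0.133 and Plin2 at 1.25 ± 0.085 CPM per kb. Their library ranges did not overlap between neighbours in this order. Cd36 (0.455 ± 0.183) and Ch25h (0.32 ± 0.146) could not be ordered, since their ranges overlapped, and Msr1 was the least abundant at 0.046 ± 0.0125. In PBS cortex the order was the same, but here the ranges of Abca1 and Soat1 overlapped, as did those of Cd36 and Ch25h and those of Ch25h and Msr1.

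Between the tissues of PBS-infused mice, 1 of the 8 genes passed the test. Scarb1 was lower in PBS cortex (18.6 to 21.9 CPM) than in PBS hippocampus (23.8 to 26.7 CPM), with a log2 difference of -0.28 (SE 0.0614, adjusted p = 0.00082 by edgeR's quasi-likelihood test with Benjamini-Hochberg adjustment over all 20271 genes). All p-values below come from this test unless another is named, and a gene passed at adjusted p under 0.05. That is 1 of 8 members lower, against 12.7% of all genes lower and 14.1% higher in cortex. Abca1 and Scarb1, 2 of the 8, lay below the hippocampal range in every cortical library, as did 8.61% of all genes. Abca1 measured 52.6 to 62.1 CPM in PBS cortex and 62.3 to 69.1 CPM in PBS hippocampus, an adjusted p of 0.157. When only the PBS libraries were fitted, Abca1 passed as well (adjusted p = 0.0471).

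**Figure D1:**
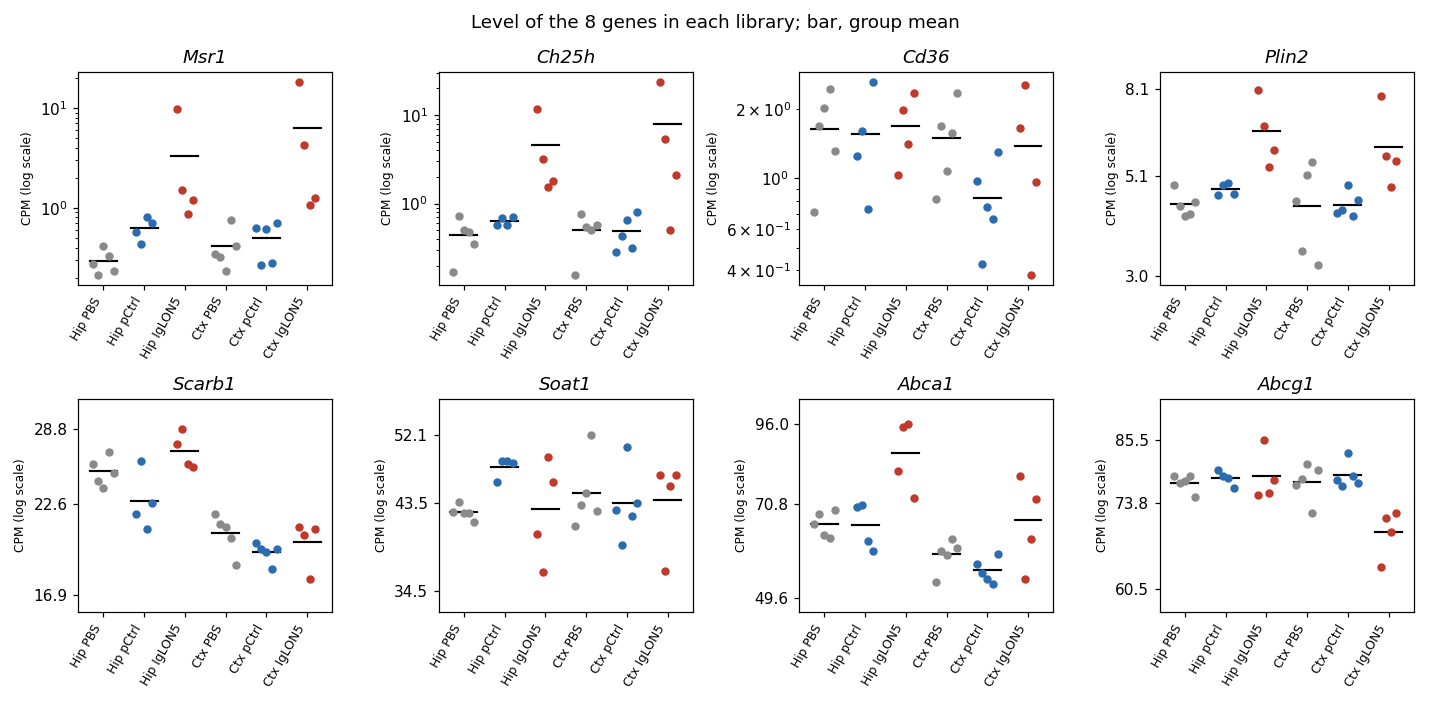
CPM of each of the 8 genes on a logarithmic y axis, 1 panel per gene, in hippocampus (Hip) and cortex (Ctx) of mice given PBS (grey), pCtrl (blue) or IgLON5 AABs (red). Each point is 1 library, drawn in order of mouse number, and the bar is the group mean. Msr1 and Ch25h reach 18.4 and 23.8 CPM in the cortex of mouse 8, whereas Soat1 and Cd36 show overlapping groups in every antibody comparison.

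The antibody response fell on different members with very different size. Where they passed, Msr1 and Ch25h rose 6.98-fold to 15.5-fold, and Abcg1 fell 1.12-fold to 1.14-fold in cortex. Abca1, Plin2 and Scarb1 rose 1.17-fold to 1.47-fold in hippocampus, Plin2 against PBS alone and Scarb1 against pCtrl alone. In hippocampus against pCtrl, 3 of the 8 members rose (Ch25h, Abca1 and Scarb1) and none fell, while 4.23% of all genes rose and 2.78% fell. Only Ch25h also exceeded a 2-fold change, the threshold the study set for a differentially expressed gene (2.21% of all genes, upward). Every IgLON5 library lay above every pCtrl library for 4 members (Msr1, Ch25h, Abca1 and Plin2), and for 6.68% of all genes. The median log2 fold change of the 8 members was 0.31, that of all genes 0.00. In hippocampus against PBS, 4 members rose (Msr1, Ch25h, Abca1 and Plin2), compared with 3.81% of genes that rose and 0.474% that fell. Msr1 and Ch25h exceeded 2-fold (2.56% of genes), and the same 4 lay above PBS in every library (4.49% of genes).

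In cortex against pCtrl, 2 members rose (Msr1 and Ch25h, both over 2-fold) and 1 fell (Abcg1). Over all genes, 3.01% rose, 2.14% rose over 2-fold and 0.449% fell. Msr1 lay above pCtrl in every library (3.68% of genes) and Abcg1 below (2.67% of genes). Against PBS the cortical calls fell on the same 3 genes in the same directions, with 2.97% of all genes rising, 2.24% rising over 2-fold and 0.074% falling. Msr1 was here the 1 member whose groups did not overlap upward (3.14% of genes). The IgLON5 libraries are shared by the comparisons with pCtrl and PBS, so the 2 comparisons of a tissue do not stand alone. When only the groups compared were fitted, no member passed by edgeR against pCtrl in either tissue (5 of 8 at an unadjusted p under 0.05 in each). Over all genes, 1.93% then rose in hippocampus and 1.6% in cortex. Against PBS, the 4 hippocampal calls held and Msr1 alone passed in cortex (adjusted p = 0.0447), with 2.98% and 1.63% of all genes rising.

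**Figure D2:**
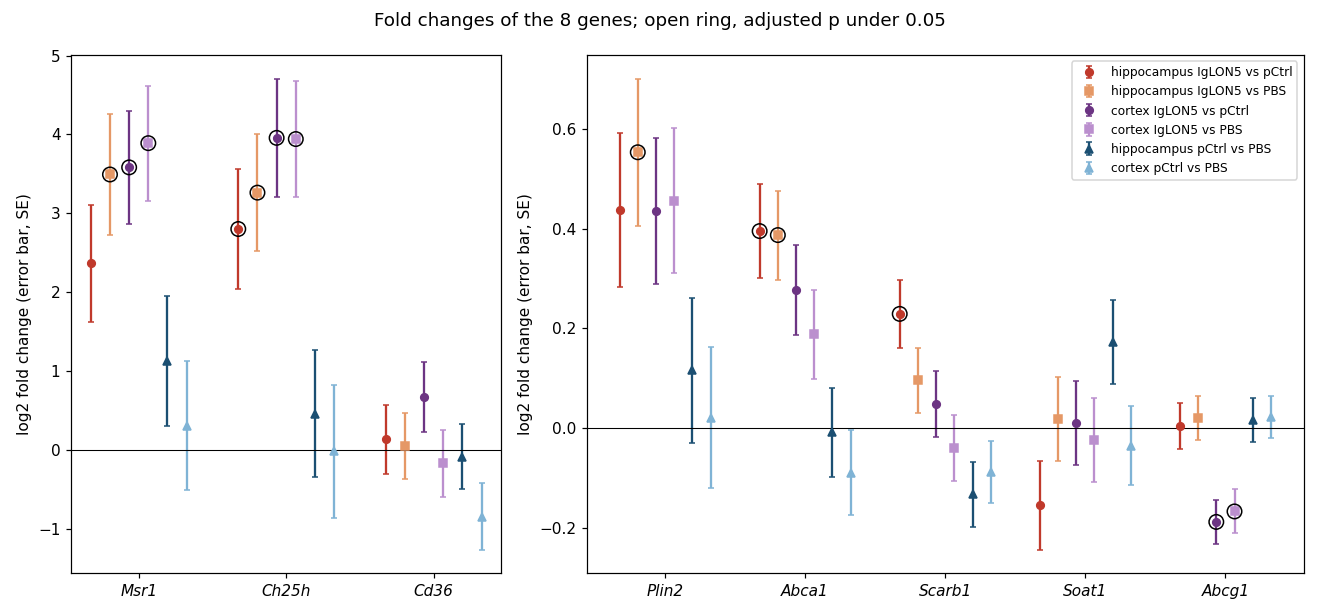
Log2 fold change (y axis, error bars SE from the edgeR fit) of each gene in 6 comparisons, with the strongly variable genes on the left and the others on a finer scale on the right. Open rings mark adjusted p under 0.05. The antibody comparisons of Msr1 and Ch25h lie between 2.37 and 3.96, those of Abca1 and Plin2 between 0.19 and 0.55, and the comparisons of pCtrl with PBS carry no ring.

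Msr1 was scarce in control tissue and higher in every IgLON5 library than in any control library of its tissue. In PBS hippocampus it was counted 8, 13, 14, 11 and 10 times (mice 14, 32, 33, 38 and 74), which is 0.213 to 0.411 CPM. The pCtrl hippocampi (mice 10, 15, 37 and 75) held 28, 23, 34 and 29 counts, 0.432 to 0.809 CPM. The IgLON5 hippocampi held 198 counts in mouse 8, 27 in mouse 9, 28 in mouse 16 and 42 in mouse 17, or 9.74, 1.52, 0.858 and 1.2 CPM. The 3 groups did not overlap in CPM, and the 3 lower IgLON5 libraries lay much closer to pCtrl than to mouse 8. Against PBS, Msr1 rose 11.3-fold (log2 3.49, SE 0.768, adjusted p = 0.00481). Against pCtrl the estimate was 5.15-fold (log2 2.37, SE 0.743), with an adjusted p of 0.0524 that missed the threshold. DESeq2 gave 0.0224 for this comparison, the fit without a filter on low counts 0.0436, and leaving out mouse 16 or mouse 17 gave 0.0212 and 0.0332. Without mouse 8, the log2 fold change was 0.90 against pCtrl (adjusted p = 0.543) and 2.02 against PBS (adjusted p = 0.182).

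In cortex, Msr1 ranged from 0.235 to 0.757 CPM in PBS and from 0.266 to 0.698 CPM in pCtrl mice, at 5 to 26 counts. The IgLON5 cortices held 676, 118, 45 and 70 counts in mice 8, 9, 16 and 17, or 18.4, 4.26, 1.07 and 1.26 CPM. All 4 lay above all 10 control libraries. Msr1 rose 12-fold against pCtrl (log2 3.58, SE 0.716, adjusted p = 0.00259) and 14.8-fold against PBS (log2 3.89, SE 0.727, adjusted p = 0.00118). Without mouse 8 the values were 2.04 (adjusted p = 0.104) and 2.35 (adjusted p = 0.0427).

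Ch25h, whose promoter is printed above, went with Msr1 among the 8 IgLON5 libraries (Pearson's r of log2 CPM 0.947 after the tissue means were removed), less so among the 19 controls (0.32); libraries share mice and treatments, and no test was made. PBS hippocampi held 5, 44, 17, 16 and 15 counts of Ch25h, 0.171 to 0.722 CPM, and pCtrl hippocampi 28, 37, 24 and 29 counts, 0.571 to 0.712 CPM. The IgLON5 hippocampi held 239, 57, 50 and 62 counts in mice 8, 9, 16 and 17, or 11.8, 3.21, 1.53 and 1.78 CPM. The lowest antibody library thus exceeded the highest control library. Ch25h rose 6.98-fold against pCtrl (log2 2.80, SE 0.766, adjusted p = 0.0261) and 9.6-fold against PBS (log2 3.26, SE 0.743, adjusted p = 0.00672). The call against pCtrl was lost without mouse 8 (log2 1.72, adjusted p = 0.225), without pCtrl mouse 10 (adjusted p = 0.0785) and without pCtrl mouse 37 (adjusted p = 0.0922). The call against PBS was lost without mouse 8 (log2 2.18, adjusted p = 0.141).

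In cortex, PBS and pCtrl libraries held 0.157 to 0.798 CPM of Ch25h. The IgLON5 cortices held 875, 149, 21 and 118 counts in mice 8, 9, 16 and 17, or 23.8, 5.38, 0.5 and 2.12 CPM. Of the 4, 3 stood above all controls, and mouse 16 lay inside the control range. The rise was 15.5-fold against pCtrl (log2 3.96, SE 0.747, adjusted p = 0.00153) and 15.4-fold against PBS (log2 3.94, SE 0.738, adjusted p = 0.0012). Without mouse 8, these became 2.36 (adjusted p = 0.0519) and 2.34 (adjusted p = 0.0463) on the log2 scale.

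The 4 antibody-treated mice kept 1 order in both tissues for these genes. Mouse 8 was highest, then mice 9, 17 and 16, for Msr1 and for Ch25h, in hippocampus and in cortex, and the same order held for Plin2. Abca1 did not follow it: its hippocampal order was 16, 9, 8 and 17, and its cortical order 8, 17, 16 and 9. Summed B cell marker RNA was also highest in mouse 8 among the IgLON5 mice, at 11.4 CPM against 4.52 to 6.56 CPM in cortex and 12.6 CPM against 4.67 to 10.1 CPM in hippocampus, where mouse 9 was the lowest. Summed monocyte marker RNA was 312 CPM against 73.9 to 186 CPM in cortex and 236 CPM against 87.2 to 172 CPM in hippocampus, lowest in mouse 9 in both, a sum that is mostly Fn1, which is not restricted to monocytes. The part of such cells in the Msr1 and Ch25h counts was not tested.

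**Figure D3:**
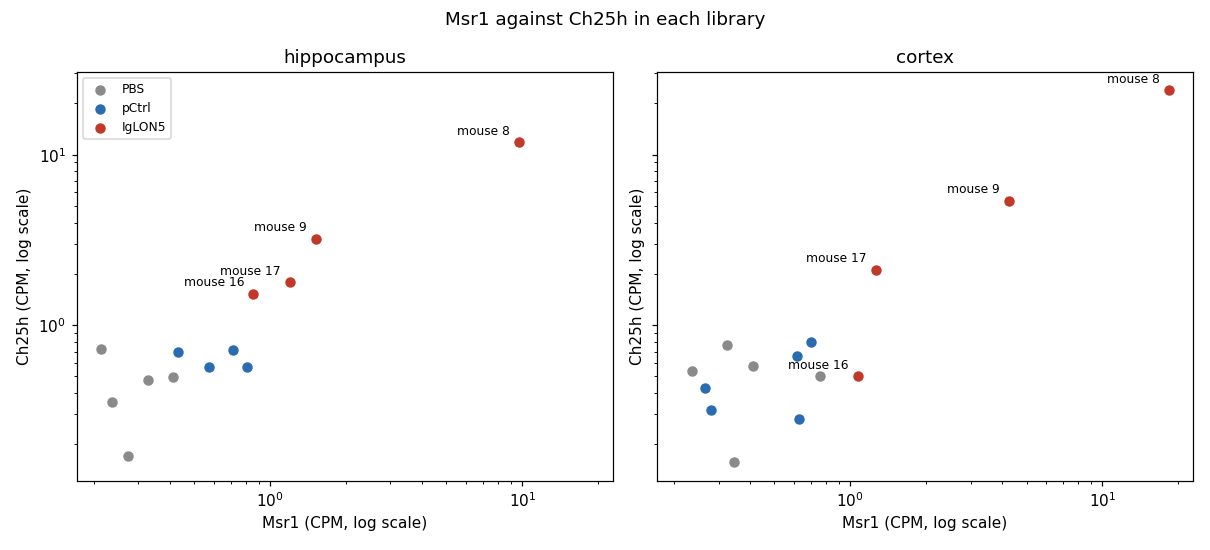
Ch25h (y axis, CPM, logarithmic) against Msr1 (x axis, CPM, logarithmic) in each hippocampal (left) and cortical (right) library, coloured by treatment, with the mouse number beside each IgLON5 library. Mouse 8 sits at the top right in both tissues (9.74 and 11.8 CPM in hippocampus, 18.4 and 23.8 CPM in cortex), and mouse 16 is nearest the controls.

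Abca1, the exporter that loads cholesterol onto lipoproteins, rose moderately in hippocampus. Its level was 62.3 to 69.1 CPM in the 5 PBS hippocampi. The pCtrl hippocampi measured 69.9, 70.6, 61.5 and 59.2 CPM in mice 10, 15, 37 and 75, and the IgLON5 hippocampi 80.2, 95, 96 and 72.5 CPM in mice 8, 9, 16 and 17. All 4 antibody libraries exceeded all 9 controls. The rise was 1.32-fold against pCtrl (log2 0.40, SE 0.0944, adjusted p = 0.0111) and 1.31-fold against PBS (log2 0.39, SE 0.0893, adjusted p = 0.00761). It held without mouse 8 (log2 0.43, adjusted p = 0.0156 against pCtrl). It was lost without mouse 9 (adjusted p = 0.0627 against pCtrl and 0.0608 against PBS) and, against pCtrl, without pCtrl mouse 37 (0.0528). In cortex, the IgLON5 libraries held 78.7, 53.2, 62 and 72.3 CPM, pCtrl 52.2 to 58.6 CPM and PBS 52.6 to 62.1 CPM. The cortical estimate against pCtrl was a log2 of 0.28 (SE 0.0896, adjusted p = 0.0957), and it passed only when mouse 9 was left out (log2 0.37, adjusted p = 0.0112). Against PBS it was 0.19 (SE 0.0894, adjusted p = 0.521).

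Abcg1, the second exporter, did not rise with Abca1. In hippocampus its log2 fold change was 0.00 against pCtrl (95% interval -0.09 to 0.10) and 0.02 against PBS (-0.07 to 0.11). In cortex it fell. The IgLON5 cortices held 63.7, 71.3, 69.1 and 72.2 CPM in mice 8, 9, 16 and 17, all below the 76.8 to 82.9 CPM of the 5 pCtrl cortices, while the PBS range of 72.1 to 80.9 CPM touched them. Abcg1 was 1.14-fold lower than in pCtrl (log2 -0.19, SE 0.0442, adjusted p = 0.0118) and 1.12-fold lower than in PBS (log2 -0.17, SE 0.0441, adjusted p = 0.0304). The first call was lost without mouse 8 (log2 -0.15, adjusted p = 0.136). The second was lost without mouse 8 (adjusted p = 0.365), mouse 16 (0.102) or PBS mouse 14, 32, 33 or 74 (0.0663 to 0.101). Both were lost without any filter on low counts (adjusted p = 0.155 and 0.373).

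Plin2, the droplet coat protein, was higher in antibody-treated tissue by about the same amount in all 4 comparisons but passed in 1. The IgLON5 hippocampi held 8.07, 6.65, 5.36 and 5.85 CPM in mice 8, 9, 16 and 17, all above the 4.62 to 4.93 CPM of pCtrl and the 4.13 to 4.88 CPM of PBS hippocampi. Against PBS, Plin2 rose 1.47-fold (log2 0.55, SE 0.147, adjusted p = 0.0254). This call was lost without mouse 8 (log2 0.43, adjusted p = 0.177), mouse 9 (0.0798) or PBS mouse 32, 33 or 74 (0.0569 to 0.0664). Against pCtrl, the log2 value was 0.44 (SE 0.154, adjusted p = 0.0847). In cortex, IgLON5 libraries held 7.8, 5.67, 4.83 and 5.52 CPM, overlapping the 3.19 to 5.49 CPM of PBS and the 4.14 to 4.87 CPM of pCtrl cortices. The cortical log2 values were 0.43 against pCtrl (SE 0.146, adjusted p = 0.112) and 0.46 against PBS (SE 0.146, adjusted p = 0.116). Leaving out mouse 16 brought Plin2 past the threshold in hippocampus against pCtrl (0.0417) and in cortex against pCtrl (0.0419) and PBS (0.0369), as did leaving out PBS mouse 38 in cortex (0.0313).

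Soat1, which makes the esters that fill the droplets, passed in no comparison. Its means in the 6 groups ran from 42.5 ± 0.823 CPM (SD, n = 5, PBS hippocampus) to 47.9 ± 1.31 CPM (n = 4, pCtrl hippocampus). In antibody-treated hippocampus it averaged 42.9 ± 5.83 CPM (n = 4), a log2 difference of -0.16 from pCtrl (95% interval -0.34 to 0.03) and of 0.02 from PBS (-0.16 to 0.19). The cortical intervals reached from -0.16 to 0.19 against pCtrl and from -0.20 to 0.15 against PBS.

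Scarb1 and Cd36, the class B scavenger receptors, did not share the response of Msr1. Scarb1 rose 1.17-fold in hippocampus against pCtrl (log2 0.23, SE 0.0686, adjusted p = 0.0419), with IgLON5 libraries at 27.4, 28.8, 25.7 and 25.5 CPM and pCtrl libraries at 21.9, 26, 20.9 and 22.7 CPM. These groups overlapped in pCtrl mouse 15. Against PBS (23.8 to 26.7 CPM) the log2 difference was 0.10 (SE 0.0652, adjusted p = 0.54). By mean pCtrl was the low group, at 22.9 CPM against 25.1 in PBS and 26.9 in IgLON5. The log2 difference of pCtrl from PBS was -0.13 (SE 0.0647, adjusted p = 0.359). The call against pCtrl was lost without any filter on low counts (adjusted p = 0.193), and without mouse 8 (0.117), mouse 9 (0.163) or pCtrl mouse 10 (0.138), 37 (0.181) or 75 (0.0698).

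Cd36 varied among the mice of each group, with no treatment difference that passed by edgeR or any alternative. PBS hippocampi ranged from 0.716 to 2.43 CPM, pCtrl from 0.738 to 2.63 CPM and IgLON5 from 1.03 to 2.35 CPM. Its log2 fold change was 0.14 against pCtrl (95% interval -0.78 to 1.05) and 0.05 against PBS (-0.82 to 0.93) in hippocampus. In cortex it was 0.68 against pCtrl (-0.25 to 1.60) and -0.17 against PBS (-1.05 to 0.72). These intervals are wide at 8 to 107 counts per library, and all but that of hippocampus against PBS include a 2-fold difference.

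The libraries were also given a score, the mean log2 CPM of 100 genes higher in PBS cortex minus that of 100 genes higher in PBS hippocampus, centred within each tissue. It ran from 0.0268 to 1.71 in pCtrl hippocampi, from -0.906 to 0.104 in IgLON5 and from -0.878 to -0.0326 in PBS hippocampi. Of the pCtrl hippocampi, mice 10 (1.03) and 37 (1.71) lay above all others, whereas mice 15 (0.0268) and 75 (0.155) lay near the top of the IgLON5 range. With the score in the fit, none of the 8 members passed against pCtrl by edgeR (1 at an unadjusted p under 0.05). Over all genes, 0.987% then passed as higher and 0.00987% as lower. Ch25h then had a log2 fold change of 1.95 (adjusted p = 0.553) and Abca1 of 0.29 (adjusted p = 0.38). Against PBS, Msr1 (3.52, adjusted p = 0.00473), Ch25h (3.28, 0.0054), Abca1 (0.40, 0.00423) and Plin2 (0.56, 0.0214) passed with the score too, as did 4.26% of all genes upward. In cortex, Msr1, Ch25h and Abcg1 passed against both controls with the score in the fit (adjusted p = 0.00164 to 0.0322). What the score measures, and its part in these values, was not tested.

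No member passed between the control IgG and PBS groups. In hippocampus, 0 of 8 members passed by edgeR, with 0.133% of all genes higher and 0.0592% lower, and 0 of 8 by DESeq2, with 1.44% higher and 1.23% lower. Soat1 was the single member under an unadjusted 0.05 (adjusted p = 0.356), where 14% of all genes were. Msr1 and Soat1, 2 of the 8, lay above PBS in all pCtrl hippocampi, as did 1.87% of genes. The Msr1 estimate was 2.18-fold (log2 1.13, 95% interval -0.59 to 2.84, adjusted p = 0.584). In cortex, 0 of 8 members passed by edgeR and by DESeq2 and 0 (edgeR) and 1 (DESeq2) had an unadjusted p under 0.05. Over all genes 0% were higher and 0% lower, and 8.14% reached the unadjusted threshold.

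The difference between the tissues was tested as the hippocampal minus the cortical antibody effect. None of the members passed by edgeR or DESeq2. Against pCtrl, 0% of all genes were higher and 0% lower by edgeR, and 0.0691% and 0.0888% by DESeq2. Against PBS, 0.00493% were higher and 0% lower by both. Abcg1 came closest, at 0.19 against pCtrl (SE 0.064, 95% interval 0.06 to 0.33, adjusted p = 0.267) and 0.19 against PBS (SE 0.0623, adjusted p = 1). It was the 1 member of 8 under an unadjusted 0.05 in each, where 10.6% and 3.32% of all genes were. For Msr1 and Ch25h the differences against pCtrl were -1.22 (95% interval -3.36 to 0.93) and -1.16 (-3.37 to 1.06), so the calls of Msr1 in cortex and not in hippocampus do not show that the tissues differ. For Abca1 the difference was 0.12 (-0.15 to 0.39).

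Of 16 other scavenger receptor genes, 15 were tested and Olr1 was not, having too few counts. Marco, Cd68 and Cxcl16 rose against pCtrl in both tissues, none fell, and the list's median log2 fold change was 0.09 in hippocampus and 0.01 in cortex. Over all genes, 4.23% rose and 2.78% fell in hippocampus, and 3.01% and 0.449% in cortex. Marco, a class A receptor like Msr1, had 0 counts in all 10 PBS libraries and a single count in 1 pCtrl library of each tissue. The IgLON5 hippocampi held 140, 93, 45 and 19 counts of Marco in mice 8, 9, 16 and 17 (adjusted p = 0.0119), and the cortices 785, 366, 7 and 20 (adjusted p = 0.00246). Cd68, a lysosomal glycoprotein of phagocytes, rose 2.13-fold in hippocampus (adjusted p = 1e-06) and 1.63-fold in cortex (adjusted p = 0.000156). Cxcl16, a chemokine that also binds oxidised lipoprotein, rose 4.89-fold (adjusted p = 0.000111) and 5.55-fold (adjusted p = 3.45e-05). Against PBS, Stab1 also rose in hippocampus (1.86-fold, adjusted p = 0.000394), a gene named after its value was seen and one that is counted among the border macrophage markers too.

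In the LXR pathway and sterol efflux list, 1 of 19 genes rose and 2 fell in hippocampus against pCtrl, where 4.23% of all genes rose and 2.78% fell, and the median log2 fold change was 0.02. Lpl, which releases fatty acids from lipoproteins, rose 1.81-fold (29.7 ± 5.21 against 16.3 ± 5.06 CPM, SD, n = 4 and 4, adjusted p = 0.0342). PBS hippocampi held 31.4 ± 11.2 CPM of Lpl (n = 5), so pCtrl was the low group. Arl4c fell by 0.22 (adjusted p = 0.0282) and the desaturase Scd2 by 0.21 on the log2 scale (adjusted p = 0.0366). For both, pCtrl was the high group: Arl4c measured 63.2 CPM in IgLON5, 73.8 in pCtrl and 64.4 in PBS hippocampi, and Scd2 1340, 1550 and 1410 CPM. In hippocampus against PBS and in both cortical antibody comparisons, none of the 19 passed by edgeR (4, 3 and 2 at an unadjusted p under 0.05 in hippocampus against PBS and in cortex against pCtrl and PBS), and their medians ran from -0.01 to 0.06. Of the oxysterol enzymes and receptor, 7 of 8 genes were tested (Hsd3b7 had no counts). None passed in hippocampus against pCtrl by edgeR (3 at an unadjusted p under 0.05), and in cortex Cyp39a1, an oxysterol hydroxylase, fell by 0.61 on the log2 scale (1.63 against 2.52 CPM, adjusted p = 0.0428). PBS cortices held 1.76 CPM of Cyp39a1, a log2 difference of -0.10 (adjusted p = 0.937). Gpr183, the receptor of the oxysterols made downstream of Ch25h, rose 1.64-fold in hippocampus against PBS (2.05 ± 0.683 against 1.23 ± 0.0971 CPM, adjusted p = 0.0363). It is named after its value was seen. Its adjusted p against pCtrl was 0.0616.

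Genes of sterol synthesis and uptake, the SREBP2 targets, were compared between IgLON5 and pCtrl hippocampi. Of the 26 genes tested, 24 had a negative log2 fold change, 7 fell and none rose, with a median of -0.24 (2.78% of all genes fell and 4.23% rose). The 7 became 1 with only the groups compared and 0 with mice 8 to 17, where 0.155% and 0.0154% of all genes fell. Hmgcs1, an early enzyme of the mevalonate pathway, fell by 0.54 (138 ± 20.9 against 200 ± 24.6 CPM, SD, n = 4 and 4, adjusted p = 0.0029). The isomerase Idi1 fell by 0.65 (adjusted p = 0.0214) and the methylsterol oxidase Msmo1 by 0.41 (adjusted p = 0.023).

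The same genes did not separate antibody from PBS. In hippocampus against PBS, none of the 26 passed by edgeR (1 at an unadjusted p under 0.05, 20 negative, median -0.07). In pCtrl against PBS, 24 of 26 were positive, with none passing (14 at an unadjusted p under 0.05) and a median of 0.19. The summed level of the list was 1350 to 1690 CPM in pCtrl, 1180 to 1420 CPM in PBS and 1070 to 1450 CPM in IgLON5 hippocampi. In PBS mice, 24 of the 26 were higher in cortex than in hippocampus, with 12 passing upward and 1 downward (14.1% and 12.7% of all genes). With the score of cortical against hippocampal genes in the fit, 0 of the 26 passed in hippocampus against pCtrl by edgeR (4 at an unadjusted p under 0.05) and 0.00987% of all genes fell. The score is built from genes that differ between the tissues, as many of these do, so this fit is no independent check. Without mouse 9, pCtrl mouse 10 or pCtrl mouse 37, 2 fell in each case, and without mouse 17, 4 fell. Of all genes, 0.627%, 1.07%, 0.504% and 2.6% fell in these fits, in the same order. In cortex none passed against pCtrl by edgeR (17 of 26 positive, median 0.04) or against PBS (17 positive, median 0.02), with 0 at an unadjusted p under 0.05 in each. The tissue difference of the effect against pCtrl was negative for 24 of 26, none passing by edgeR (12 at an unadjusted p under 0.05; Hmgcs1, adjusted p = 0.245). Other alternatives for these counts are given in the closing section.

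**Figure D4:**
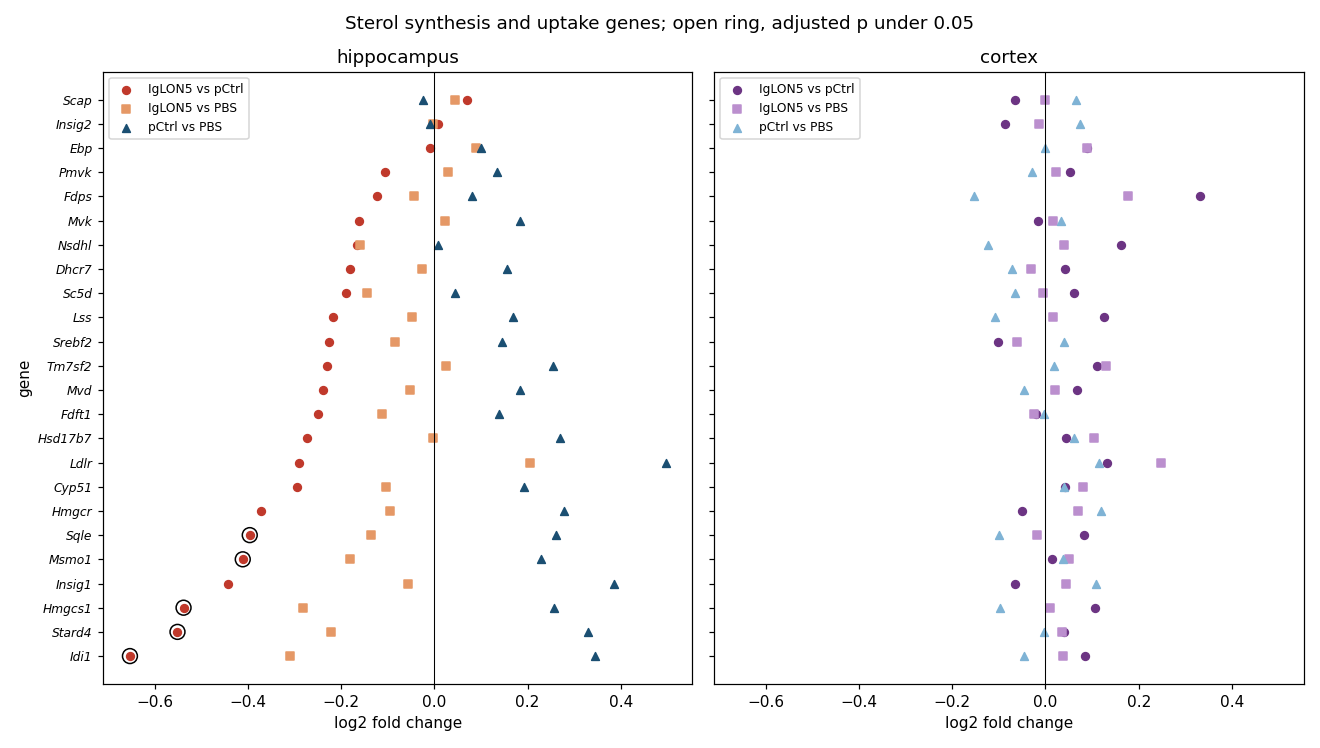
Log2 fold change (x axis) of 24 of the 26 sterol synthesis and uptake genes (y axis, sorted by the hippocampal value against pCtrl) in hippocampus (left) and cortex (right), with open rings where adjusted p is under 0.05. In hippocampus, the values against pCtrl lie to the left (median -0.24 over the 26), those of pCtrl against PBS to the right (0.19) and those of IgLON5 against PBS between them (-0.07); in cortex all 3 lie near 0.

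Of 24 lipid droplet and sterol ester genes other than the members, 21 were tested. In hippocampus against pCtrl, 2 rose and 1 fell, where 4.23% of all genes rose and 2.78% fell, and in cortex against pCtrl 1 rose (3.01% of all genes). Soat2, the second sterol esterification enzyme, rose 9.09-fold in hippocampus against pCtrl from very low counts (0.56 ± 0.557 against 0.0551 ± 0.0455 CPM, adjusted p = 0.0149), whereas Soat1 did not pass. Npc2, a lysosomal cholesterol carrier, rose 1.3-fold in hippocampus (adjusted p = 0.00255) and 1.2-fold in cortex (adjusted p = 0.0436). Nceh1, a cholesterol ester hydrolase, fell by 0.29 on the log2 scale in hippocampus (126 against 155 CPM, adjusted p = 0.0127), where PBS mice held 138 CPM. Against PBS, Soat2 (5.57-fold, adjusted p = 0.0412) and Npc2 (1.5-fold, adjusted p = 3.56e-06) rose in hippocampus, and Soat2 rose in cortex (12-fold, adjusted p = 0.00857), where Npc2 did not pass (0.064). Nceh1 did not pass against PBS in either tissue (adjusted p = 0.401 in hippocampus and 0.863 in cortex). The medians of the list against pCtrl were 0.01 and -0.01 in hippocampus and cortex.

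Markers of some cell types differed between the groups as well. Of 10 homeostatic microglia markers, 5 rose in hippocampus against pCtrl (among them Tmem119, Cx3cr1, Olfml3 and Fcrls; 4.23% of all genes rose), and their summed level was 339 to 568 CPM in IgLON5, 276 to 318 in pCtrl and 255 to 311 in PBS hippocampi. Abca1 and this sum were both highest in mice 9 (568 CPM) and 16 (460 CPM) and lower in mice 8 (339 CPM) and 17 (354 CPM). In cortex the orders were opposite: Abca1 was highest in mouse 8 (78.7 CPM), where the sum was lowest (319 CPM), and lowest in mouse 9 (53.2 CPM), where the sum was highest (364 CPM). In cortex the sum was 319 to 364 CPM in IgLON5, 281 to 346 in pCtrl and 278 to 304 in PBS mice, and none of the 10 passed against pCtrl by edgeR (5 at an unadjusted p under 0.05; 3.01% of all genes rose). Against PBS, 3 of the 10 rose in cortex (Cx3cr1, Olfml3 and Fcrls, 1.46-fold to 1.47-fold; 2.97% of all genes rose) and 5 in hippocampus (3.81%). In hippocampus 8 of the 10 had a positive value against each control, but in cortex only 6 against pCtrl and 5 against PBS. P2ry12 and Gpr34 had a negative value in both tissues, and are named after their values were seen. P2ry12 measured 30.1 CPM in IgLON5 against 39.1 CPM in pCtrl hippocampi (adjusted p = 0.241) and 29.8 against 40.4 CPM in cortices (0.213). Gpr34 measured 11.1 against 12.6 CPM (0.695) and 9.46 against 14 CPM (0.174). Against pCtrl, 3 of 9 monocyte markers tested rose in hippocampus and 7 of 9 in cortex (4.23% and 3.01% of all genes rose). Against PBS, 5 and 7 of the 9 rose (3.81% and 2.97% of all genes). Ly6c2 rose 14-fold and 24.8-fold against pCtrl, from very low levels of 0.0828 and 0.0449 CPM. B cell markers rose against pCtrl in 5 of 8 in hippocampus and 3 of 8 in cortex, and against PBS in 5 and 2. Their sum was 4.67 to 12.6 CPM in IgLON5 against 3.55 to 4.31 CPM in pCtrl hippocampi. Of 9 border macrophage markers, 1 (Lyve1) fell in both tissues against both controls, and the rise of Stab1 in hippocampus against PBS, given above, was the single one. Emcn was the 1 of 10 endothelial markers to rise in hippocampus against pCtrl (4.23% of all genes rose). It measured 4.83 CPM in IgLON5, 3.31 in pCtrl and 3.95 in PBS hippocampi, so pCtrl was the low group. Against PBS, none of the 10 endothelial markers passed there by edgeR (3 at an unadjusted p under 0.05). Of 10 neuron markers, Tubb3 and Stmn2 fell in hippocampus against pCtrl (2.78% of all genes fell). For Tubb3 and Stmn2, pCtrl was the high group: Tubb3 measured 216 CPM in IgLON5, 273 in pCtrl and 213 in PBS hippocampi, and Stmn2 234, 287 and 241 CPM. Against PBS, 1 of the 10 neuron markers fell in hippocampus (Gad2, named after its value was seen, 161 against 188 CPM, adjusted p = 0.035; 0.474% of all genes fell), and 8 of the 10 had a negative value. None of the astrocyte, oligodendrocyte or choroid plexus markers passed against pCtrl in either tissue by edgeR (0, 2 and 3 at an unadjusted p under 0.05 in hippocampus, 1, 0 and 0 in cortex), although all 10 oligodendrocyte markers had a negative hippocampal value (median -0.40, 2310 to 4000 CPM summed in IgLON5 and 2930 to 4860 CPM in pCtrl). Against PBS (2190 to 4430 CPM summed), 2 of the 10 were positive in hippocampus, with a median of -0.12 and none passing. All 10 were positive in pCtrl against PBS hippocampi (median 0.25, none passing), so pCtrl was the high group by mean. In cortex all 10 were negative against PBS, in IgLON5 (median -0.37) and in pCtrl (-0.30). None of these passed by edgeR (3 and 0 at an unadjusted p under 0.05). No list had a marker at 0 in all libraries of a group. The part of any of these cells in the members' changes was not tested.

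The genes most like each member over the 27 libraries, by Pearson's r of log2 CPM after the tissue means were removed, fell into different groups. Those most like Ch25h were Tap1 (r = 0.984), Icam1 (0.951) and Trim21 (0.948), and those most like Msr1 were Ifih1 (0.944), Gbp2 (0.942) and Parp14 (0.939). Within the 8 IgLON5 libraries, r was 0.993 for Ch25h with Tap1 and 0.986 for Msr1 with Gbp2, and within the 19 control libraries 0.875 and 0.476. Plin2 was most like C5ar1 (0.921), Tmem106a (0.913) and Zbp1 (0.907). Abca1 was most like P2rx7 (0.856), Slc29a3 (0.846) and Tnfrsf13b (0.822), and Abca1 with P2rx7 reached 0.182 in the control libraries alone. Soat1 was most like Gxylt2 (0.886), Trabd2b (0.876) and Pdgfd (0.853), and Cd36 most like Cyb5r1 (0.826), Gm29771 (0.821) and Anks4b (0.79). Soat1 with Gxylt2 and Cd36 with Cyb5r1 kept r at 0.905 and 0.872 among the controls. Abcg1 (Spata2, 0.751, Klhl8, 0.731 and Amigo1, 0.72) and Scarb1 (Cdk6, 0.772, Dhx40, 0.762 and Lman2l, 0.757) had the weakest likeness. These values are descriptions over libraries that share mice and treatments, and no test was made of them.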

How the data were processed

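Bulk RNA sequencing libraries of mouse cortex and hippocampus were made with a stranded poly(A) mRNA kit and sequenced with paired ends on a NovaSeq. The authors deposited 1 matrix of raw gene counts for 27 libraries, made from reads aligned with STAR to GRCm38 per the study's methods; the counting tool, its annotation and its strand setting are not given in the sources used here. Of 55487 identifiers, 55227 matched GENCODE M21 after the version was removed.

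The main test was the quasi-likelihood F test of edgeR 4.0.16 (R 4.3.3) after TMM normalization, with all 6 groups of tissue and treatment in 1 fit. It was run on the 20271 genes that reached 10 counts in 4 or more libraries. P-values were adjusted by the Benjamini-Hochberg method, with a threshold of 0.05, and a fold of 2 for a differentially expressed gene. Confidence intervals are 95% intervals from the fit. Scripts were tested on simulated data. DESeq2 (1.42.0) was an alternative, with Benjamini-Hochberg adjustment and unshrunken fold changes. The study used DESeq2 with independent hypothesis weighting and apeglm shrinkage, neither of which was run here, so calls and the 2-fold limit need not match its own. Other alternatives were RLE size factors, other count filters, a tissue composition score as covariate, fits of only the groups compared, only mice 8 to 17, a fold threshold of 1.5, and each library left out. Libraries held 19385642 to 58550621 counts. P-values measure the spread between these libraries, 1 per mouse and tissue as far as the titles tell.

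Named genes were the 8 members, from each pathway list at most the 4 genes with the smallest hippocampal p among those that passed against pCtrl in either tissue, and the 3 genes most correlated with each member; exceptions are marked, and some genes that the rule names are not reported here. The members and lists were chosen with earlier results of these data known.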

Additional observations from a re-analysis of the deposited data

Results flagged for a closer look

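Each of the 8 genes was checked in each of the 6 groups for a library that stands far from the others. Of the 48 combinations, 5 held one, where chance gives about 1 in 20. Mouse 8 stood apart in hippocampus for Msr1, at 9.74 CPM with the next IgLON5 library at 1.52 CPM (gap over range 0.925, n = 4). The same mouse stood apart in hippocampus for Ch25h, at 11.8 CPM with the next at 3.21 CPM (0.836). In IgLON5 cortex, Scarb1 was lowest in mouse 16, at 17.8 CPM with the next at 20.5 CPM (0.844), and Soat1 was lowest in mouse 9, at 36.4 CPM with the next at 45.6 CPM (0.876). In pCtrl hippocampus, Soat1 was lowest in mouse 10, at 46.0 CPM with the next at 48.4 CPM (0.889).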

How the results depend on the processing

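No member that passed in a comparison changed direction there under any alternative run, and Cd36 and Soat1 passed under none. Members that passed in hippocampus against pCtrl numbered 3, and 0 with the composition covariate, with only the groups compared and with mice 8 to 17. Of pCtrl, the fit of mice 8 to 17 held only mice 10 and 15 in hippocampus and 10, 11 and 15 in cortex. In hippocampus against PBS, 4 became 2 when at least 10 counts were required in every library, a filter that leaves 5 members to test and removes Msr1 and Ch25h. In cortex, under that filter, 3 became 1 against pCtrl and 0 against PBS. With only the groups compared, the cortical counts were 0 against pCtrl and 1 against PBS, and that of PBS cortex against hippocampus rose from 1 to 2. With mice 8 to 17 the cortical count against pCtrl was 0. The whole table lost calls in these fits too: with mice 8 to 17, 0.277% of all genes rose in hippocampus and 0.0512% in cortex. With each library left out, the counts ran from 0 to 5 (hippocampus, pCtrl), 1 to 4 (hippocampus, PBS), 0 to 4 (cortex, pCtrl) and 2 to 4 (cortex, PBS). Members past both the test and a 2-fold change numbered 1 in hippocampus against pCtrl, 2 with DESeq2 and without a filter, and 0 with 10 counts in every library, the covariate, only the groups compared and mice 8 to 17; with a library left out they ran from 0 (without IgLON5 mouse 8, pCtrl mouse 10 or 37) to 2 (without IgLON5 mouse 16 or 17). The 2 in hippocampus against PBS and in cortex against pCtrl became 0 without mouse 8, and the cortical 2 against pCtrl and PBS became 0 and 1 with only the groups compared. A 1.5-fold limit left these counts as they were. The cause of these changes was not tested beyond the removal named. The 7 sterol synthesis genes that fell in hippocampus against pCtrl became 9 with DESeq2, 9 without a filter and 1 with only the groups compared. They became 0 with the covariate, 0 with mice 8 to 17 and 2 to 10 with a library left out. Of all genes, 4.03%, 1.59%, 0.155%, 0.00987%, 0.0154% and 0.504% to 5.1% fell in these fits, in the same order. These alternatives were added after seeing the data. Low counts limit Msr1, Ch25h and Cd36 in control tissue.

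Mouse numbers shared by the tissues were checked as a pairing: over the 13 numbers, the correlation of deviations from the group means ran from -0.0498 to 0.443 (median 0.194), 8 exceeded 0.1, and 8 of 13 hippocampi were most like the cortex of their own number. The samples were not treated as paired. With the mouse number as a replicate block, 1 member passed in PBS cortex against hippocampus (Scarb1, -0.29, adjusted p = 0.00162) and 0 in either tissue difference, as without it.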
